A study of Mus musculus with 18 samples.

Results

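The 40 genes described here encode proteins of mitosis and DNA replication: 28 act mainly in mitosis and 12 in replication or entry into S phase. They were chosen by gene name in the scanner files of the KI arrays, 3 of them under older names (Stk6 for Aurka, Cdc2a for Cdk1 and D4Ertd421e for Cdca8), and all 40 were found among the 28919 genes tested. Expression was measured on 18 two-colour Agilent arrays carrying RNA of whole flash-frozen mammary tissue from female FVB/N mice. The 9 RNA samples were 2 normal mammary glands, 2 NIC tumour pools that each mixed equal amounts of 5 tumours, and 5 tumours taken singly from mice with an ErbB2 knock-in, called KI. Each RNA was hybridised on 2 arrays with exchanged dyes against a commercial mouse reference RNA. The study's title concerns β-catenin signalling in tumours driven by ErbB2, a receptor tyrosine kinase. The labels give no ages, do not spell out NIC, and do not name the promoter that drives either tumour model. In the literature NIC stands for a transgene with a mammary tumour virus promoter that makes activated Neu, the rat ErbB2, and Cre recombinase from the same transcript. A pool shows the average of its tumours, so the spread of single NIC tumours was not measured.

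Dividing cells make these messengers in waves. Licensing factors such as Cdc6 load the Mcm helicase on origins before S phase, and Pcna, Rrm2, Tyms and Tk1 then serve the polymerases with a sliding clamp and nucleotides. Cyclins A and B with Cdk1 drive the cell into mitosis, where Aurora and Polo kinases, kinesin motors and the spindle checkpoint act. Most of these messengers are scarce in resting tissue, and Mki67 and Top2a are in wide use as proliferation markers in breast pathology. Many replication genes carry E2F sites in their promoters, and many mitotic genes carry a CHR element (cell cycle genes homology region) with CCAAT boxes nearby.

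Promoter sequences of RefSeq (GRCm38.p6, from 250 bases before to 50 after the annotated start) were available for 23 of the 28 mitotic members, in 24 windows, and for 11 of the 12 replication members. The windows were searched on both strands for the CHR letters TTTGAA and variants of them, for the letters CCAAT, and for E2F letters, which were TTTCGCGC and the forms TTTGGCGC, TTTCCCGC and TTTGCCGC. The CHR variants were TTCGAA, the palindrome TTTAAA and the form TTGGAA. The last of these can overlap a CCAAT box read on the other strand (ATTGGAA), and E2F forms can overlap each other on opposite strands. Below are the 200 bases before the start for 4 mitotic members in which CHR and CCAAT letters both occurred, chosen after the search, and for the 3 replication members with E2F letters before the start. Capitals mark the letters found, and the coding strand is shown 5′ to 3′.
Cdk1, chr10:69352913-69353112, minus strand: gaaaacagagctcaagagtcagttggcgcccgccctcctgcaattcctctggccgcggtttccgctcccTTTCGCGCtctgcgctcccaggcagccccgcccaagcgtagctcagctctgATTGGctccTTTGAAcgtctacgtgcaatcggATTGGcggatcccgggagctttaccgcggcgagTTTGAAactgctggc
Ccnb2, chr9:70421555-70421754, minus strand: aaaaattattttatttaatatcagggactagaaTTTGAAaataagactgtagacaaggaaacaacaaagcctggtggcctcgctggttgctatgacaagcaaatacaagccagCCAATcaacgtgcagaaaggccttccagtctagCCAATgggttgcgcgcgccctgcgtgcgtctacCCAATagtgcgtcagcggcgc
Top2a, chr11:99024190-99024389, minus strand: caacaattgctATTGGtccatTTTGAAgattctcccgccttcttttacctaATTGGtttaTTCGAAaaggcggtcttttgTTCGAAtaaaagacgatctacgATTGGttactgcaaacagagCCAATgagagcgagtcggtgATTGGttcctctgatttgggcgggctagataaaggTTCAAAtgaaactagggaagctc
Ube2c, chr2:164769729-164769928, plus strand: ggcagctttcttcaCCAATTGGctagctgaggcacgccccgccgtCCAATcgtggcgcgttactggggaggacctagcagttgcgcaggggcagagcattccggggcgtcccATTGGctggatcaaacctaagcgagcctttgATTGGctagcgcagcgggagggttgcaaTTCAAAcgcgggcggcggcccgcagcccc
Mcm5, chr8:75109309-75109508, plus strand: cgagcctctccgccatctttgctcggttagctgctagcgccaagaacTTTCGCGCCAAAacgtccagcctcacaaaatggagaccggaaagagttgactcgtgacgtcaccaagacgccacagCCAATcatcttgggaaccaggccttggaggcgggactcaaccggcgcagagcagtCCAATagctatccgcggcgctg
Mcm6, chr1:128359706-128359905, minus strand: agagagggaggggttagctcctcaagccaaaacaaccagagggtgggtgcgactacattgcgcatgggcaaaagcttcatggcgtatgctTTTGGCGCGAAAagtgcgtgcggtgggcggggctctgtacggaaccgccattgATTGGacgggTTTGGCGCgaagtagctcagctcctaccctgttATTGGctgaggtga
Cdc6, chr11:98907951-98908150, plus strand: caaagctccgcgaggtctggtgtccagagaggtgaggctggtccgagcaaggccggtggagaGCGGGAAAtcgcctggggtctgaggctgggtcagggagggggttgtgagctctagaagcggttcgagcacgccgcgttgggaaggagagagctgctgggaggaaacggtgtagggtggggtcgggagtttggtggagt

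Over the whole 300-base windows, CHR letters occurred in 21 of 24 mitotic windows (87.5%), in 5 of 11 replication windows (45.5%) and in 39.6% of all 32851 promoter windows. CHR and CCAAT letters occurred together in 79.2% of the mitotic, 27.3% of the replication and 16.3% of all windows. E2F letters showed the opposite order, with 4 of 11 replication windows (36.4%), 1 of 24 mitotic windows (4.17%, the Cdk1 window above) and 2.26% of all windows. When only the 250 bases before the start were read, CHR and CCAAT occurred together in 50% of mitotic, 18.2% of replication and 13.4% of all windows, and E2F letters in 4.17%, 27.3% and 1.86%. A match describes letters only and is not a measured binding site.

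**Figure D1:**
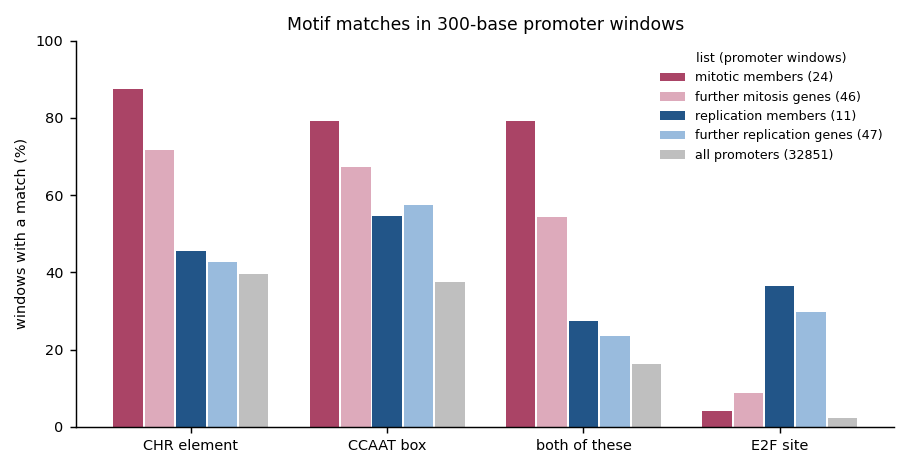
Share of 300-base promoter windows (percent) that hold each motif, for the 2 classes of members, 2 longer lists of mitosis and replication genes, and all promoters; the number of windows is in the legend. Bars for mitotic members reach 87.5% for CHR letters and 4.17% for E2F letters, and bars for replication members 45.5% and 36.4%.

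Levels are log2 ratios of sample over reference RNA, each the mean of the dye pair, from the brightest probe of a gene on the KI arrays. All 40 probes were well above background on all 10 KI arrays and none was saturated. Normal and NIC arrays lie in 1 deposited table and KI arrays in another, so KI group, table and platform record cannot be told apart, and scanner values were used here for the KI arrays alone. The direction of the normal and NIC table was read by analogy with the KI table and from bright control spots, whose sign turned with the dye as on the KI arrays (−1.78 to −0.77 with the sample in Cy5, 1.01 to 2.23 in Cy3). Arrays of a dye pair correlated over genes at 0.875 to 0.902 for KI tumours, 0.941 for normal gland 1 and 0.94 for NIC pool 2, but at 0.817 for normal gland 2 and 0.828 for NIC pool 1. The Cy5 arrays of those last RNA samples resembled the Cy3 array of the other sample of their group more closely (0.859 and 0.893). The members' arrays of a pair lay off the usual dye gap by a median of 0.51 log2 units in normal gland 2 (up to 2.03) and 0.32 in NIC pool 1 (up to 1.48), beside 0.02 to 0.06 in the KI tumours. Whether arrays were exchanged between the samples of these groups was not tested, so a level given for a single normal gland or NIC pool may mix both samples of its group. In that case the 2 samples would share RNA, and their spread, standard errors and p-values could come out too small. Leaving out 1 of them would then not remove 1 RNA. Log ratios also spread more widely on the normal arrays (interquartile range 0.751 to 0.924) than on the NIC (0.488 to 0.530) and KI arrays (0.417 to 0.556). Values without these samples and with all arrays brought to 1 spread therefore stand beside the counts.

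Against the normal glands, most mitosis and replication genes were higher in tumours of either kind. In the NIC pools 29 of 40 members (72.5%) rose and 0 fell, where 8.79% of all genes were called higher and 9.80% lower by limma (adjusted p under 0.05 over all genes). In the KI tumours 37 of 40 (92.5%) rose and 0 fell, against 17.8% of all genes called higher and 24.9% lower. The median difference over the 40 members was 1.44 log2 units in NIC (range −0.11 to 3.53) and 1.63 in KI (−0.19 to 3.59), beside −0.06 and −0.03 over all genes. A difference of at least 2-fold was seen for 28 members in NIC and 35 in KI, beside 11% and 10.6% of all genes. For 12 and 10 members it was at least 4-fold, beside 3.12% and 2.48% of all genes. Foxm1 was the only member below 0, with an unadjusted p of 0.53 in NIC and 0.156 in KI. Both comparisons use the same 2 normal glands, and 28 members were called in both. Every NIC pool lay above both normal glands for 39 members (30.0% of all genes did), and every KI tumour did so for 38 (23.7% of all genes).

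The number of calls depended on the scaling. With either NIC pool left out, the NIC arm held 1 sample, assumed to vary like the normal glands. In that design limma called 0 of 28919 genes in either direction (lowest adjusted p 0.0905 and 0.0921), so its lack of calls says nothing about the members' stability. An unadjusted p under 0.05 was then seen for 34 members without NIC pool 1 and 33 without NIC pool 2 (6400 and 6977 of all genes), and the members' median was 1.47 and 1.45. Without normal gland 2, which leaves that arm 1 sample, the members' median was 1.51 in NIC and 1.72 in KI. With the samples' Cy3 arrays alone 13 members (32.5%) were called in NIC, where 3.39% of all genes were called higher. With all arrays brought to 1 spread the calls fell to 12 in NIC (30.0%, median 0.64), where 9.41% of all genes were called higher, and to 8 in KI (20.0%, median 0.43, with Foxm1 called lower), where 10.2% were. With quantile normalization 11 were called in NIC (27.5%, median 1.03), beside 7.73% of all genes, and 20 in KI (50%, median 0.89, Foxm1 called lower), beside 10.6%. Under scaling 35 members in NIC and 38 in KI stayed above 0. Bub1b, Melk, Nusap1, Top2a, Ube2c, Birc5 and Mcm2 were called in KI under all 20 alternatives tried.

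**Figure D2:**
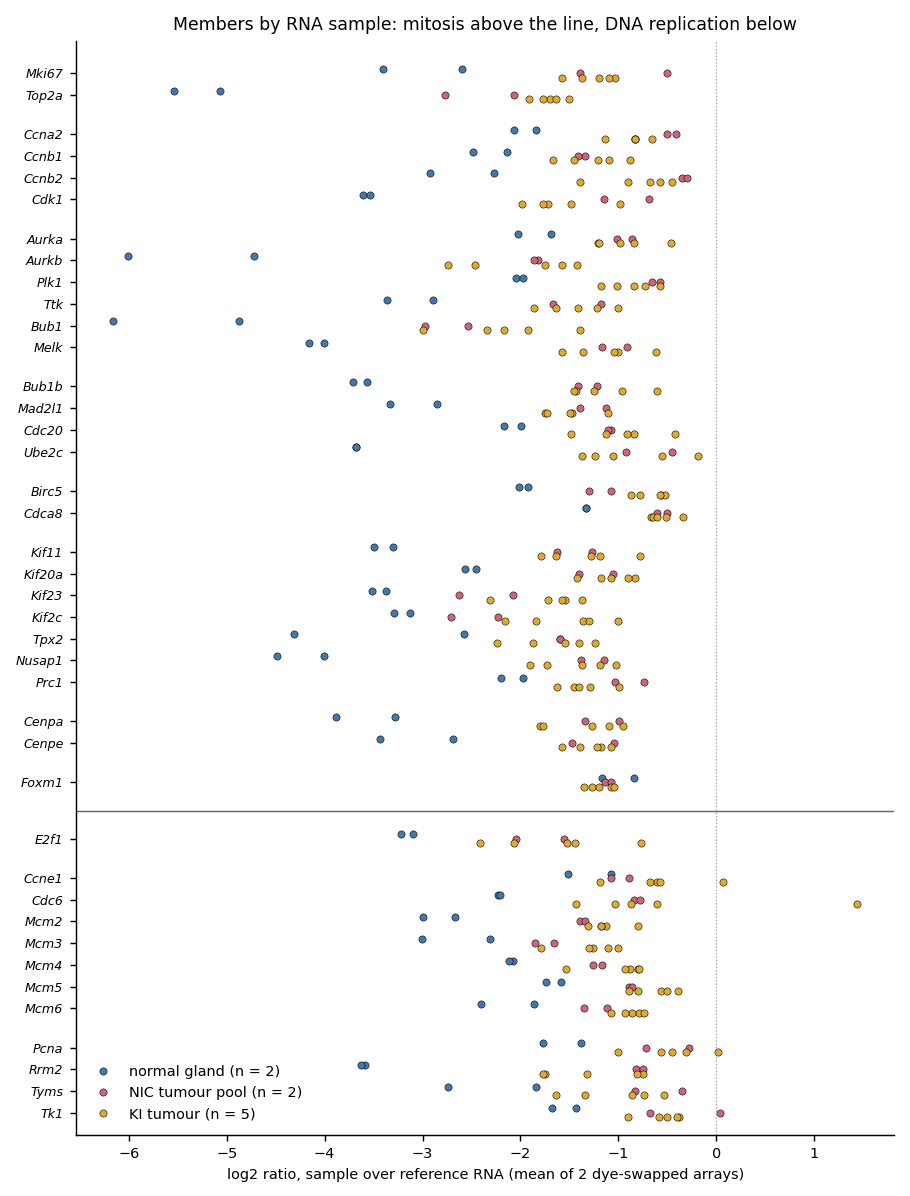
Level of each member (log2 ratio of sample over reference RNA, horizontal axis) in the 2 normal glands, 2 NIC pools and 5 KI tumours, with mitotic members above the line and replication members below it, grouped by role. For 38 members both normal glands lie below all 7 tumour samples.

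The proliferation markers were low in normal gland. Mki67, the gene of the Ki-67 antigen, stood at −3.4 and −2.6 in normal gland, −0.5 and −1.39 in NIC and −1.58, −1.37, −1.03, −1.2 and −1.1 in KI tumours 1 to 5. Both normal glands lay below all tumour samples, and the NIC pools differed from each other. Mki67 rose in KI (1.75 ± 0.30 SE, adjusted p = 0.00312) and missed the threshold in NIC (2.05 ± 0.45, adjusted p = 0.0594). Its second probe differed by 2.23 in NIC and 2.36 in KI. Top2a, the topoisomerase that untangles replicated chromosomes, stood at −5.07 and −5.54 in normal gland, −2.07 and −2.77 in NIC and −1.7, −1.64, −1.91, −1.5 and −1.77 in KI tumours 1 to 5. It rose 7.38-fold in NIC (2.88 ± 0.33, adjusted p = 0.0206) and 12.1-fold in KI (3.59 ± 0.21, adjusted p = 5.75e-05), the largest rise of a member in KI. The level of Top2a in normal gland 2 lay near the lowest of any gene there (−5.79). Signal over background was not used here for the normal arrays, so the size of these folds is uncertain. A dim second probe of Top2a differed by 0.24 in NIC and 0.04 in KI.

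All 4 cyclin and Cdk1 members rose in both tumour groups. Ccna2, cyclin A, which serves S phase and mitotic entry, stood at −2.07 and −1.84 in normal gland, −0.41 and −0.5 in NIC and −1.14, −0.83, −0.83, −0.66 and −0.83 in KI tumours 1 to 5. The 3 groups did not overlap, with the NIC pools highest. Cdk1, the kinase that drives mitosis, stood at −3.61 and −3.54 in normal gland, −1.15 and −0.69 in NIC and −1.72, −1.98, −1.48, −0.98 and −1.77 in KI tumours 1 to 5. It rose 6.30-fold in NIC (2.66 ± 0.20, adjusted p = 0.0123) and 3.97-fold in KI (1.99 ± 0.26, adjusted p = 0.00114), with a dim second probe at 0.73 and 0.62. Ccnb1, cyclin B, stood at −2.14 and −2.48 in normal gland, −1.34 and −1.41 in NIC and −1.67, −1.45, −1.21, −0.88 and −1.1 in KI tumours 1 to 5, with all tumour samples above the normal glands. By this brightest probe it rose by 0.94 in NIC and 1.05 in KI, but its dimmer probes differed by 2.18 and 4.02 in NIC and by 2.20 and 3.85 in KI, so the size of its rise depends on the probe. Ccnb2, a second B-type cyclin, rose by 2.27 ± 0.26 in NIC and 1.80 ± 0.27 in KI.

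All 6 mitotic kinase members rose in NIC and in KI. Aurkb, the Aurora kinase of the chromosomal passenger complex, stood at −6.01 and −4.72 in normal gland, −1.82 and −1.86 in NIC and −2.74, −2.46, −1.75, −1.42 and −1.58 in KI tumours 1 to 5. It showed the largest rise of a member in NIC, 11.5-fold (3.53 ± 0.49, adjusted p = 0.028), and rose 10.4-fold in KI (3.38 ± 0.45, adjusted p = 0.00124). Its normal glands stood far apart, yet both lay below all tumour samples. The lowest level of any gene in normal gland 1 was −6.16, close to that of Aurkb. Signal over background was not used here for the normal arrays, so the size of its fold is uncertain. Aurka, the Aurora kinase of the spindle poles, moved less and stood at −1.69 and −2.02 in normal gland, −1.01 and −0.86 in NIC and −1.21, −0.98, −0.46, −0.84 and −1.2 in KI tumours 1 to 5. It rose by 0.92 ± 0.16 in NIC and by 0.92 ± 0.21 in KI, while after scaling it differed by 0.15 in KI (adjusted p = 0.694). Bub1, a checkpoint kinase at kinetochores, stood at −6.16 and −4.88 in normal gland, −2.54 and −2.97 in NIC and −2.34, −3.0, −1.39, −1.92 and −2.17 in KI tumours 1 to 5. It rose by 2.77 ± 0.51 in NIC and 3.36 ± 0.47 in KI. Its level in normal gland 1 equalled the lowest of all genes tested there, so the same limit holds for Bub1. Melk, a kinase abundant in proliferating progenitors, rose 8.27-fold in NIC (3.05 ± 0.15) and 7.82-fold in KI (2.97 ± 0.24), while its dimmer second probe differed by 0.30 and 0.33. Ttk, which starts the spindle checkpoint, rose by 1.70 in both, and Plk1, the Polo kinase, by 1.39 ± 0.10 and 1.14 ± 0.15.

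The checkpoint and destruction members also rose without exception in both groups. Cdc20, the activator of the ubiquitin ligase that ends mitosis, stood at −1.99 and −2.17 in normal gland, −1.07 and −1.11 in NIC and −1.48, −1.13, −0.84, −0.42 and −0.91 in KI tumours 1 to 5. KI tumour 1 was the lowest tumour sample and KI tumour 4 the highest, and both normal glands lay below them. It rose by 0.99 ± 0.12 in NIC and 1.12 ± 0.25 in KI. Ube2c, the ubiquitin-conjugating enzyme of the same ligase, rose more, 7.97-fold in NIC (3.0 ± 0.20) and 6.95-fold in KI (2.80 ± 0.32). Bub1b, which holds Cdc20 back until chromosomes are attached, stood at −3.71 and −3.57 in normal gland, −1.22 and −1.41 in NIC and −1.43, −1.45, −1.25, −0.61 and −0.96 in KI tumours 1 to 5. The rise was 2.33 ± 0.13 in NIC and 2.50 ± 0.23 in KI. Mad2l1, its partner in the checkpoint, rose by 1.84 ± 0.22 and 1.58 ± 0.20.

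Birc5 and Cdca8, which belong to the passenger complex with Aurkb, rose by smaller amounts by their brightest probes. Birc5, survivin, which places the complex on centromeres, gave the brightest signal of the 40 and stood at −1.92 and −2.01 in normal gland, −1.3 and −1.07 in NIC and −0.56, −0.52, −0.78, −0.57 and −0.87 in KI tumours 1 to 5. The 3 groups did not overlap, in the order normal, NIC, KI. Birc5 rose by 0.78 ± 0.13 in NIC (adjusted p = 0.0375) and 1.31 ± 0.12 in KI (adjusted p = 0.000303). Cdca8, borealin, stood at −1.33 and −1.33 in normal gland, −0.5 and −0.6 in NIC and −0.67, −0.65, −0.51, −0.34 and −0.6 in KI tumours 1 to 5, and rose by 0.78 ± 0.10 and 0.77 ± 0.10. A dimmer probe of Cdca8 differed by 2.95 and 3.03 and another, much dimmer still, by −0.37 and −0.36.

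Among the 7 motor and spindle members 4 rose in NIC and all 7 in KI. Prc1, which bundles the microtubules of the midzone, stood at −2.2 and −1.97 in normal gland, −0.74 and −1.03 in NIC and −1.45, −1.63, −0.99, −1.4 and −1.29 in KI tumours 1 to 5. It rose by 1.20 ± 0.17 in NIC and by 0.73 ± 0.17 in KI, where scaling turned its sign (−0.16, adjusted p = 0.56). Nusap1, a microtubule-binding protein of the spindle, rose 7.94-fold in NIC (2.99 ± 0.22) and 7.02-fold in KI (2.81 ± 0.26). A dimmer second probe of Nusap1 differed by 0.11 and 0.33, and the mean of its probes rose by 1.55 and 1.57. Kif11, the motor that separates the spindle poles, stood at −3.5 and −3.3 in normal gland, −1.27 and −1.63 in NIC and −1.79, −1.64, −1.28, −0.78 and −1.19 in KI tumours 1 to 5. Every tumour sample lay above both normal glands, and the rise was 1.95 ± 0.18 in NIC and 2.06 ± 0.26 in KI. A dim second probe of Kif11 differed by −0.05 in both, and the mean of its probes rose by 0.95 and 1.01. Kif20a, a motor of cytokinesis, stood at −2.57 and −2.45 in normal gland, −1.05 and −1.4 in NIC and −1.18, −1.42, −0.83, −0.9 and −1.08 in KI tumours 1 to 5, and rose by 1.29 ± 0.17 and 1.43 ± 0.17, with a second probe at 1.31 and 1.44.

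The other 3 of this role passed the test in KI alone, and the differences between the 2 tumour groups are given further on. Kif23, a centralspindlin motor, stood at −3.52 and −3.37 in normal gland, −2.08 and −2.63 in NIC and −1.72, −2.31, −1.37, −1.55 and −1.58 in KI tumours 1 to 5. Its difference was 1.09 ± 0.23 in NIC (adjusted p = 0.0563) and it rose by 1.74 ± 0.26 in KI. Its second probe differed by 1.17 and 1.85 and another, dimmer, by −0.54 and −0.29. Kif2c, which takes microtubules apart at centromeres, stood at −3.29 and −3.13 in normal gland, −2.23 and −2.71 in NIC and −1.84, −2.16, −1.36, −1.0 and −1.3 in KI tumours 1 to 5. The KI tumours lay above the NIC pools and these above the normal glands, with a difference of 0.74 ± 0.21 in NIC (adjusted p = 0.0916) and a rise of 1.68 ± 0.31 in KI. Tpx2, which activates Aurka on the spindle, differed by 1.85 ± 0.65 in NIC (adjusted p = 0.13) and rose by 1.79 ± 0.45 in KI, with normal glands at −4.31 and −2.58.

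Both centromere members rose. Cenpa, the histone variant that marks centromeres, stood at −3.88 and −3.28 in normal gland, −1.34 and −0.99 in NIC and −1.8, −1.77, −1.27, −0.95 and −1.1 in KI tumours 1 to 5. It rose 5.35-fold in NIC (2.42 ± 0.28, adjusted p = 0.0208) and 4.60-fold in KI (2.20 ± 0.29, adjusted p = 0.00109). Cenpe, a kinetochore motor, rose by 1.81 ± 0.33 and 1.78 ± 0.23. Its second probe, nearly as bright, differed by 0.54 in NIC and 1.14 in KI, and another, dimmer, by 1.89 and 1.61. In KI against NIC these probes differed by 0.60 and −0.29, and the brightest by −0.03.

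The 2 transcription factors had different levels. Foxm1, an activator of late cell cycle genes, stood at −0.84 and −1.17 in normal gland, −1.14 and −1.08 in NIC and −1.27, −1.35, −1.08, −1.04 and −1.2 in KI tumours 1 to 5. It was flat over all 9 samples, and alone among the members its difference was below 0 in NIC (−0.11 ± 0.16, adjusted p = 0.652) and in KI (−0.19 ± 0.12, adjusted p = 0.243). It was called lower in KI after scaling (−0.70, adjusted p = 0.0034) and after quantile normalization (−0.78, adjusted p = 0.000921). A single probe stood for Foxm1. E2f1, an activator of S phase genes, stood at −3.22 and −3.1 in normal gland, −2.05 and −1.56 in NIC and −0.77, −2.41, −2.07, −1.44 and −1.52 in KI tumours 1 to 5. KI tumour 1 was the highest and KI tumour 2 the lowest tumour sample. E2f1 rose by 1.35 ± 0.21 in NIC (adjusted p = 0.0328) and 1.51 ± 0.40 in KI (adjusted p = 0.0195). The call was lost in 9 of 12 alternatives in NIC and in 4 of 20 in KI. After scaling E2f1 differed by 0.19 in NIC (adjusted p = 0.557) and 0.22 in KI (adjusted p = 0.741).

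Of the 7 licensing and S phase entry members 4 rose in NIC and 5 in KI. The 5 Mcm genes measured encode subunits of the replicative helicase, and they moved within a narrow band, with a median of 0.89 in NIC (0.79 to 1.47) and 1.25 in KI (1.03 to 1.71). Mcm6, the brightest, stood at −2.4 and −1.86 in normal gland, −1.12 and −1.35 in NIC and −0.79, −1.07, −0.86, −0.74 and −0.93 in KI tumours 1 to 5. Mcm2 stood at −3.0 and −2.67 in normal gland, −1.39 and −1.34 in NIC and −1.31, −1.13, −1.18, −0.8 and −1.18 in KI tumours 1 to 5. For both, the KI tumours lay above the NIC pools and the NIC pools above the normal glands. Mcm2 rose 2.77-fold in NIC (1.47 ± 0.15, adjusted p = 0.0189) and 3.28-fold in KI (1.71 ± 0.15, adjusted p = 0.000245), the largest rise of the 5. Mcm3 stood at −3.01 and −2.31 in normal gland, −1.66 and −1.85 in NIC and −1.0, −1.79, −1.26, −1.11 and −1.3 in KI tumours 1 to 5, with KI tumour 2 close to the NIC pools. Mcm4 stood at −2.08 and −2.12 in normal gland, −1.17 and −1.26 in NIC and −0.8, −1.53, −0.88, −0.79 and −0.93 in KI tumours 1 to 5. KI tumour 2 lay below both NIC pools and the other KI tumours above them. Mcm5 stood at −1.74 and −1.59 in normal gland, −0.89 and −0.86 in NIC and −0.8, −0.89, −0.56, −0.39 and −0.5 in KI tumours 1 to 5. Mcm3 and Mcm6 missed the threshold in NIC (0.90 ± 0.28, adjusted p = 0.109, and 0.89 ± 0.24, adjusted p = 0.0815), and all 5 rose in KI.

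Cdc6, which loads the helicase, stood at −2.23 and −2.21 in normal gland, −0.84 and −0.78 in NIC and −1.03, −0.6, −1.43, −0.87 and 1.44 in KI tumours 1 to 5. KI tumour 5 was the only sample above 0. Cdc6 rose by 1.42 ± 0.10 in NIC (adjusted p = 0.011) and with this wide spread missed the threshold in KI (1.72 ± 0.69, adjusted p = 0.0806). Without KI tumour 5 it was called in KI, at 1.24 ± 0.21 (adjusted p = 0.00649). That tumour was singled out by its own Cdc6 value, so this p-value may come out too small. A dimmer second probe of Cdc6 differed by 0.43 in NIC and 1.58 in KI, and by 1.15 in KI against NIC. Ccne1, cyclin E, which starts S phase, stood at −1.51 and −1.08 in normal gland, −0.89 and −1.08 in NIC and −0.6, −1.19, −0.68, 0.07 and −0.57 in KI tumours 1 to 5. Its groups lay close together, and it was not called in NIC (0.31 ± 0.20, adjusted p = 0.319) or KI (0.70 ± 0.29, adjusted p = 0.0934).

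The clamp and the nucleotide enzymes rose in KI in all 4 cases and in NIC for Rrm2 alone. Pcna, the clamp, stood at −1.38 and −1.77 in normal gland, −0.72 and −0.28 in NIC and −0.45, −1.0, 0.02, −0.31 and −0.56 in KI tumours 1 to 5. It differed by 1.08 ± 0.24 in NIC (adjusted p = 0.0596) and rose by 1.11 ± 0.27 in KI. Rrm2, the regulated subunit of ribonucleotide reductase, stood at −3.59 and −3.63 in normal gland, −0.82 and −0.75 in NIC and −1.75, −1.77, −1.32, −0.75 and −0.81 in KI tumours 1 to 5. It rose 7.09-fold in NIC (2.83 ± 0.10, adjusted p = 0.00775) and 5.03-fold in KI (2.33 ± 0.31, adjusted p = 0.00115), the largest changes among replication members. Tyms, thymidylate synthase, differed by 1.70 ± 0.39 in NIC (adjusted p = 0.0636) and rose by 1.27 ± 0.36 in KI. Its second probe differed by 1.53 and 1.09 and another, dimmer, by −0.25 and −0.30. Tk1, thymidine kinase, differed by 1.24 ± 0.30 in NIC (adjusted p = 0.0692) and rose by 1.0 ± 0.21 in KI.

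**Figure D3:**
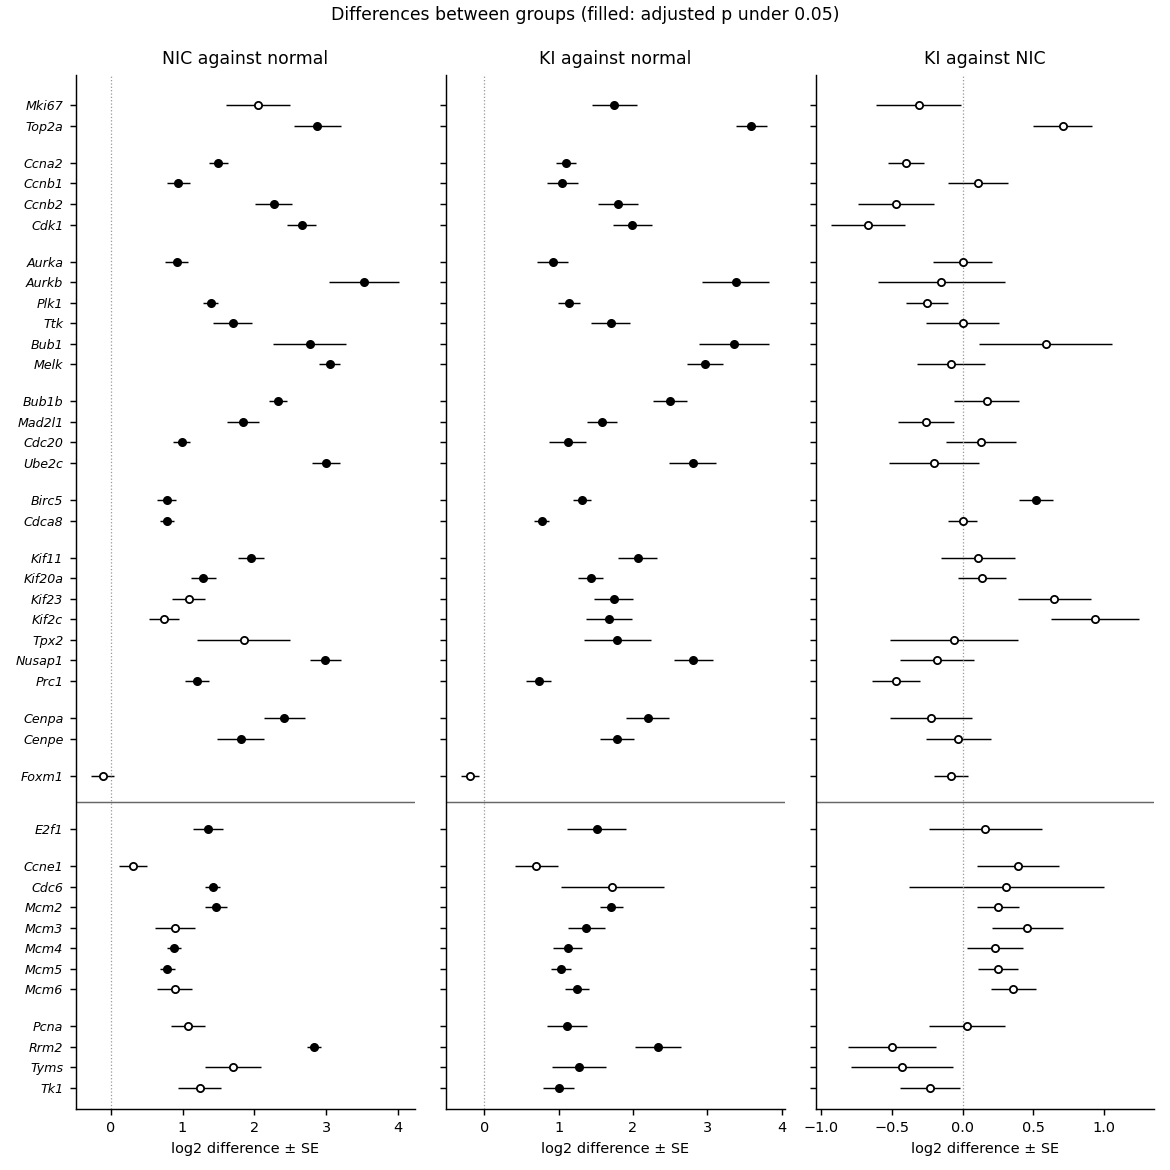
Log2 difference with its standard error for each member in the 3 comparisons, filled where limma's adjusted p was under 0.05; the third panel has a narrower axis. The members lie right of 0 against normal gland except Foxm1, and between −0.67 and 0.94 in KI against NIC, where Birc5 alone is filled.

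Mitotic members moved further from normal gland than replication members by the median. In NIC the median difference was 1.82 over 28 mitotic and 1.16 over 12 replication members, a gap of 0.66, and 23 (82.1%) and 6 (50%) of them rose. In KI the medians were 1.74 and 1.26, a gap of 0.48, and 27 (96.4%) and 10 (83.3%) rose. The classes overlap widely, since by the brightest probes Rrm2 moved more than most mitotic members and Cdca8 less than most replication members. A dimmer probe of Cdca8 differed by 2.95 in NIC and 3.03 in KI. The gap kept its sign in every alternative tried but not its size: in NIC it was 0.19 without normal gland 1, 0.23 without NIC pool 1, 0.89 without NIC pool 2 and 0.41 after scaling, and in KI it was 0.11 after scaling. Leaving out Mki67, Top2a, Ccna2, Foxm1 and Melk, which act in more than 1 phase or as regulators, with E2f1 and Ccne1, gave 0.65 and 0.48. The gap itself was not tested.

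Between the tumour groups the estimated differences of the members were small. In KI against NIC 1 of 40 members (2.50%) was called higher and 0 lower, close to the 2.92% and 3.28% of all genes. An unadjusted p under 0.05 was seen for 7 members (17.5%) and for 6409 of 28919 genes (22.2%). The differences ran from −0.67 to 0.94, with 19 above 0 and 21 below, and no member reached 2-fold. Standard errors of these differences had a median of 0.25 (0.10 to 0.69), and Kif2c went uncalled at 1.92-fold. Changes near 2-fold could therefore go uncalled, and larger ones where the standard error was wide. Birc5 was the called member (1.44-fold higher, 0.52 ± 0.12, adjusted p = 0.0455), and it lost the call in 14 of 20 alternatives, with differences from 0.25 to 0.69 and adjusted p up to 0.476. Kif2c showed the largest difference (0.94 ± 0.31, adjusted p = 0.124) and was called in 4 alternatives, among them KI values taken from the scanner intensities (1.23, adjusted p = 0.0109). Top2a followed (0.71 ± 0.21, adjusted p = 0.0969), and Cdk1 was the lowest (−0.67 ± 0.26, adjusted p = 0.187). Their dim second probes differed by −0.2 for Top2a and −0.11 for Cdk1, and the probe means by 0.26 and −0.39. Cdca8 (−0.0016 ± 0.10) and Ttk (−0.002 ± 0.26) differed least.

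Signs in KI against NIC were mixed within most roles. All 7 licensing and S phase entry members were above 0 (0.23 to 0.46) and none was called. Cdc6 was below 0 (−0.18) once KI tumour 5 was left out, and Mcm2 (−0.12) and Mcm4 (−0.06) were below 0 after quantile normalization. Top2a, Birc5, Kif2c, Mcm2 and Mcm6 had every KI tumour above both NIC pools (12.5% of members, 16.4% of all genes). Ccna2 and Ccnb2 had every KI tumour below both NIC pools (5.00% of members, 14.7% of all genes). Rrm2, Tyms and Tk1 were below 0 (−0.50, −0.43 and −0.23), also uncalled. The median was 0.24 over replication members and −0.05 over mitotic members, a gap of −0.28 that ran from −0.35 to −0.18 over the alternatives. After quantile normalization 30 of the 40 members were below 0, so the split of signs over the 40 depends on scaling.

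The 5 KI tumours, which are single tumours, differed among themselves in these genes. The SD over the 5 had a median of 0.35 over the members, against 0.15 over all genes and 0.22 over genes above the median signal. It was 0.35 for mitotic and 0.34 for replication members, from 0.13 (Foxm1 and Mcm6) to 1.12 (Cdc6), and exceeded the error from the dye pairs (0.01 to 0.13) for all 40. KI tumour 4 was the highest of the 5 for 25 members (for 16.3% of all genes) and KI tumour 3 for 10 (24.8%). KI tumour 2 was the lowest for 22 (26.3% of all genes) and KI tumour 1 for 14 (20.4%). The classes did not follow the same order: KI tumour 1 was lowest for 13 mitotic members but for 1 replication member, and highest for 3 replication members (Mcm3, Tk1 and E2f1). Its median deviation from the KI mean was −0.26 over mitotic and 0.00 over replication members, whereas KI tumour 2 was low in both (−0.29 and −0.49) and KI tumour 4 high in both (0.34 and 0.20). No test was made of this order. Markers of other cell types also differed among these tumours: the median level of 6 skeletal muscle markers was 0.66 in KI tumour 2 and −0.71 to −0.01 in the other 4. The median of 7 fibroblast markers was −1.74 in KI tumour 2 and −0.93 to 0.41 in the others. That of 6 myoepithelial markers was 0.09 and 0.28 in KI tumours 1 and 2 and 1.42 to 1.84 in the others. For 6 macrophage markers it was 0.83 in KI tumour 2 and 1.06 to 1.88 in the others. The median of 10 epithelial markers ran from 2.45 to 2.93 over the 5 tumours. What part these cell types had in the order was not tested.

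**Figure D4:**
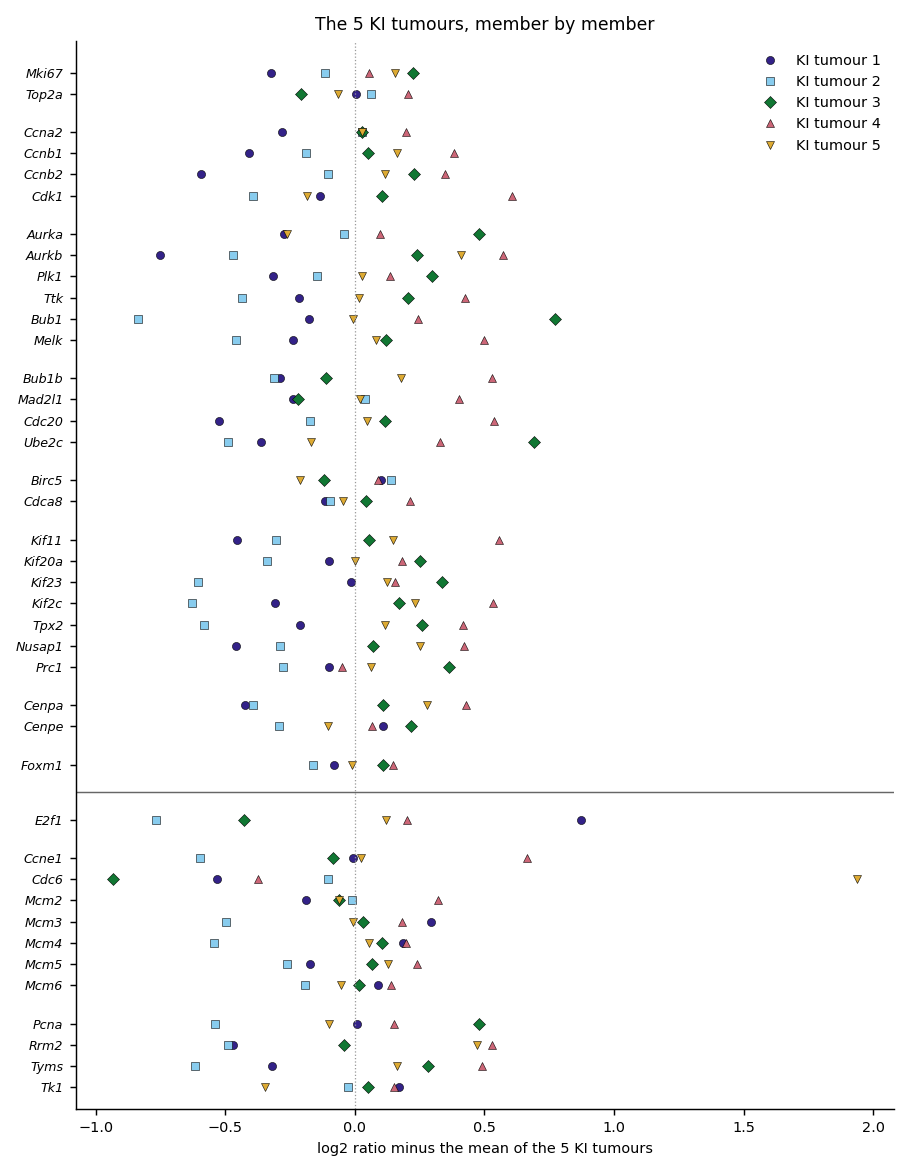
Each member in each KI tumour as the log2 ratio minus the mean of the 5 tumours, mitotic members above the line. Tumour 4 lies to the right and tumour 2 to the left for most members, tumour 1 lies left for 25 of 28 mitotic and 6 of 12 replication members, and Cdc6 in tumour 5 stands far right.

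Longer lists of genes of the same processes were compared with the same backgrounds, 8.79% of all genes called higher and 9.80% lower in NIC, and 17.8% and 24.9% in KI. Of 45 further mitosis genes 26 (57.8%) rose and 0 fell in NIC (median 1.48), and 39 (86.7%) rose and 1 fell in KI (median 1.5). With all arrays brought to 1 spread 7 of them (15.6%) were called higher in NIC and 7 in KI, beside 9.41% and 10.2% of all genes, with medians of 0.38 and 0.31. With quantile normalization 14 and 21 of the 45 were called higher, beside 7.73% and 10.6% of all genes. The largest rises were those of the kinase gene Pbk (4.0 ± 0.29), the kinetochore gene Spc25 (3.80 ± 0.14) and the cytokinesis gene Ect2 (3.59 ± 0.28) in NIC, and of Gtse1 (3.54 ± 0.58), Cenph (3.52 ± 0.25) and Ect2 (3.46 ± 0.26) in KI. The fall was Cdc25c, a phosphatase that activates Cdk1 (−0.57 ± 0.09). Of 44 further replication genes 16 (36.4%) rose and 1 fell in NIC (median 0.98), and 29 (65.9%) rose and 0 fell in KI (median 1.08). After scaling 6 of the 44 were called higher and 2 lower in NIC (median 0.27), and 7 higher and 0 lower in KI (median 0.17). The shares of all genes called higher were then 9.41% and 10.2%. With quantile normalization 8 and 13 of the 44 were called higher, again beside 7.73% and 10.6% of all genes. Polymerase subunit gene Pole2 (2.82 ± 0.16), clamp loader gene Rfc3 (2.45 ± 0.17) and Uhrf1 (2.30 ± 0.18), which guides methylation of new DNA, rose most in NIC, and Uhrf1 (2.48 ± 0.25), Cdc45 (2.32 ± 0.37) and Mcm10 (2.23 ± 0.42) in KI.

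Orc1, the largest subunit of the origin recognition complex, went its own way. Its levels were −1.07 and −0.91 in normal gland, −1.70 and −1.65 in NIC, and −0.78, −0.83, −0.74, −0.66 and −0.62 in KI tumours 1 to 5. It fell in NIC (−0.68 ± 0.11, adjusted p = 0.0354) and was higher in KI than in NIC (0.95 ± 0.08, adjusted p = 0.00237). In KI against NIC the longer mitosis list had 1 call higher (Cdc25b, 0.54 ± 0.10) and 1 lower (the condensin gene Ncapd2, −0.90 ± 0.20), and the longer replication list had Orc1 alone. These shares (2.22% and 2.22%, and 2.27%) lie below the 2.92% and 3.28% of all genes called higher and lower.

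Markers of other cell types differed between the same groups. Of 10 adipocyte markers 8 fell in each tumour group, and their median level was 3.85 and 3.44 in the normal glands against −0.07 to 0.39 in the tumour samples. Of 10 epithelial markers 8 rose in NIC and 9 in KI (0.34 and 0.26 in normal gland, 2.45 to 2.96 in tumours). Of 6 endothelial markers 4 fell in NIC and 1 in KI, of 7 fibroblast markers 3 and 4, of 6 T cell markers 3 and 4, and of 6 B cell markers 2 and 5. Of 6 skeletal muscle markers 2 and 3 fell. Of 6 myoepithelial markers 3 fell in each group and 1 rose in KI. Of 6 macrophage markers 2 rose and 1 fell in NIC, and 1 rose and 0 fell in KI (median difference −0.08 and 0.0). The 1 rise in KI of each of these 2 lists (16.7%) lies below the 17.8% of all genes called higher. Beside the 9.80% of all genes called lower in NIC and 24.9% in KI, the 1 endothelial marker in KI (16.7%) is no more than the background. The part of these cell types in the members' differences was not tested. In bulk tissue, more cells of a kind and more RNA of a gene in each cell cannot be told apart.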

How the data were processed

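Messenger RNA was measured on 18 two-colour arrays, 2 per RNA sample with dyes exchanged. The authors deposited 2 tables of log2 ratios, which were read here as sample over reference with no change of sign. KI columns followed the scanner values of the same arrays after loess (r = 0.982 to 0.988). Dyes were taken from the label fields, although the protocol text of some KI arrays states them the other way round. RMA is named in the submitters' processing notes, with no role given; further steps: not given in the sources used here. Spot intensities and a log10 ratio of the KI arrays, which Agilent's Feature Extraction software wrote, per the file headers, served as alternatives (normexp, offset 50, and loess).

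Control spots (2256) were left out and 41174 probes reduced to 28919 genes by the brightest probe on the KI arrays. Probes were named through a RefSeq table (20716 by accession, 5039 by symbol, 5279 by an older symbol), and 10140 kept the name in the file. Differences came from two-sided moderated tests of limma (version 3.58.1, R 4.3.3) on RNA samples, with Benjamini-Hochberg adjustment over all genes, on 4 RNA samples for NIC against normal and on all 9 for the rest. The limma script was tested on simulated data. The number of arrays limits the precision. Labels do not say whether samples share litters, so p-values reflect only how these samples vary. All 40 members are described by role; per-sample values were given for the brightest member of each role, the largest and smallest differences, members against the majority's sign and members called in KI against NIC. Members and lists were chosen with earlier results of these data known. Alternatives were each RNA sample left out, 1 dye, all arrays with the RNA sample as a random block, probe means, 2 rescalings, other samples in the fit, scanner values, bright genes and 1 extraction day.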

Additional observations from a re-analysis of the deposited data

Results flagged for a closer look

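Among the 5 KI tumours, 2 of 42 values tested had a sample far from the others by Dixon's criterion for 5 samples (gap over range above 0.710), and chance flags about 1 in 20. Cdc6 stood at 1.44 in KI tumour 5, with the other 4 tumours between −1.43 and −0.60 (gap over range 0.711). Without KI tumour 5 its difference in KI against normal went from 1.72 (limma adjusted p = 0.0806) to 1.24 (adjusted p = 0.00649), and in KI against NIC from 0.31 to −0.18 (adjusted p = 0.743). Mcm4 stood at −1.53 in KI tumour 2, with the others between −0.93 and −0.79 (gap over range 0.814). Without KI tumour 2 Mcm4 differed by 0.37 in KI against NIC (limma adjusted p = 0.0327, against 0.558 with all tumours). For Cdc6 and Mcm4 the tumour left out was singled out by the same values, so the p-values without it may come out too small. Birc5 differed between the tumour groups (KI against NIC, 0.52 ± 0.12 SE, limma adjusted p = 0.0455), higher in 5 of 5 KI tumours than in both NIC pools; its call was lost in 14 of 20 alternatives.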

How the results depend on the processing

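No paired analysis was possible because the labels give each gland, pool and tumour its own identifier. In NIC against normal 29 members were called higher: 13 with samples in Cy3 only, 12 with all arrays scaled to 1 spread, 11 with quantile normalization, and 0 to 22 with 1 sample left out, where the 0 comes from the fits with a single NIC pool, in which no gene was called in either direction; with a single normal gland 21 and 22 were called. In KI against normal 37 were called higher: 8 after scaling and 20 after quantile normalization, each with 1 called lower, where the main fit had 0; leaving out 1 sample gave 32 to 38. In KI against NIC 1 was called higher: 3 with KI from scanner intensities, 2 with the scanner log ratio, 2 with the random block, and 0 after scaling, after quantile normalization (with 1 called lower), among genes above the median signal, with the 7 tumour samples alone or on the larger extraction day; leaving out 1 sample gave 0 to 3. The gap between mitotic and replication medians in NIC (0.66) was 0.87 in Cy3, 0.44 in Cy5 and 0.41 after scaling, and 0.19 to 0.89 with 1 sample left out; in KI (0.48) it was 0.11 after scaling. Prc1 reversed in KI against normal, at −0.16 after scaling and −0.00013 after quantile normalization. The spread among KI tumours (0.35) stayed between 0.28 and 0.37. Of the member values, 733 of 800 alternatives in KI against normal and 318 of 480 in NIC against normal kept sign and side of the threshold. The cause of these shifts was not tested. The 2 normal glands and 2 NIC pools limit the precision of every comparison, signal over background was not used here for their arrays, and the KI arrays come from a table of their own.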
